A study of Equus asinus with 3 samples.

Results

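Germ cells of the donkey (Equus asinus) testis that carry an intermediate load of transition protein and protamine mRNA are described here. They were chosen by the share of each barcode's unique molecular identifiers (UMIs, counted transcript molecules) that came from TNP1, TNP2 and PRM2, termed P. A testis barcode belonged to them when P was at least 0.15% and below 1.0%. Of 8610 testis barcodes, 991 met this rule (11.5%, 95% exact binomial interval 10.8 to 12.2%), out of 27699 barcodes in the series. They are called the intermediate barcodes below, and their working name is early elongating spermatids. They were compared with 163 testis barcodes at P of at least 1.0% (the high barcodes), with 1262 at P from 0.05 to 0.15% (the low barcodes) and with all 7619 other testis barcodes.

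The study made droplet single-cell RNA libraries, 1 each from testis, epididymis caput and epididymis corpus. All tissue came from sexually mature male donkeys, 3 per the series design, with no strain, genotype, treatment or exact age among the labels. Each library is recorded with storage of up to 48 h and digestion for 15 min at 37 °C. The sources used here do not say which of the 3 animals gave which library, or whether tissue was pooled. With 1 library per tissue there is no replicate error, so no difference below has a p-value, and every interval covers counting error alone.

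Spermatids are the haploid cells that become sperm. While round they build the acrosome, the enzyme-filled cap of the sperm head, and begin the flagellum; they then elongate as the manchette, a skirt of microtubules, shapes the head. Histones are exchanged for transition proteins and these for protamines, which pack the DNA. In the mouse, mRNA of transition proteins and protamines is made in round spermatids and stored before it is translated, so these transcripts appear ahead of the change in shape.

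The 5 markers given with the working name include TNP1 and PRM2, which the rule used. The other markers were at higher levels in the intermediate barcodes than in the rest of the testis. TSSK2, a testis-specific serine kinase, had 659 UMIs per 1000000 (CPM) in the intermediate barcodes and 115 CPM in the rest of the testis, 5.74-fold higher (5.50 to 5.999). ODF3, an outer dense fibre gene, had 175.5 CPM in the intermediate barcodes and 19.8 CPM in the rest, 8.89-fold higher (8.08 to 9.77). FABP12, a fatty acid binding protein gene, had 303.5 CPM in the intermediate barcodes and 35.2 CPM in the rest, 8.62-fold higher (8.02 to 9.25). All 3 intervals lay beyond 2-fold. Against the high barcodes only ODF3 was higher beyond 2-fold, with 62.8 CPM in the high barcodes; TSSK2 had 758 CPM and FABP12 409 CPM there, above their intermediate level. With every barcode thinned to 1800 UMIs, TSSK2 had a UMI in 65.3% of the intermediate barcodes (86.0% unthinned, median 4460 UMIs). It had one in 58.9% of the high barcodes (73.0% unthinned, median 3592 UMIs), and FABP12 had one in 39.2% of the intermediate and 48.5% of the high barcodes, both thinned (67.2% and 70.6% unthinned). TSSK2 had one in 6.45% of 62 testis barcodes rich in stromal and leukocyte genes (8.06% unthinned, median 2136.5 UMIs), taken here as the background level.

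Other values were mixed on the word elongating. Several genes of the high barcodes stood at a few percent of their level there. SPEM1, which in the mouse is needed to strip cytoplasm from the sperm head, had 21.1 CPM in the intermediate barcodes and 389 CPM in the high barcodes, or 5.43% of the high level. Other genes listed as elongating spermatid markers were nearer to it. Thinned to 1800 UMIs, HMGB4 had a UMI in 97.4% of intermediate and 92.0% of high barcodes, and ODF1 in 78.8% and 95.1%. In the same order AKAP4 had one in 58.6% and 85.3%, GAPDHS in 45.7% and 87.1%, and OAZ3 in 29.8% and 85.3%. SPEM1 had one in 3.23% and 42.9%. Such shares near their ceiling for abundant genes. By CPM, given further on, HMGB4, ODF1, AKAP4, GAPDHS and OAZ3 were all below their level in the high barcodes. The share of UMIs from a list of round spermatid genes was, of these groups, highest in the intermediate barcodes. The 17 measured genes of that list gave 0.592% of UMIs in the intermediate barcodes, 0.418% in the high barcodes, 0.421% in the low barcodes and 0.221% in the rest of the testis. The list's median log2 ratio over the high barcodes was 0.60, close to the 0.57 of all genes tested. Within the range its share rose from 0.529% for P of 0.15 to 0.2% to 0.668% for P of 0.6 to 1.0%. For P of 1 to 2% it was 0.553%. Cell shape was not measured, and the group is therefore called by its rule.

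P formed a continuous distribution across both edges of the rule. The median P of the intermediate barcodes was 0.265%, from a median of 12 UMIs of the 3 rule genes (3 to 175). The 20 barcodes just inside the lower edge had a median P of 0.152% and the 20 just outside 0.149%. The 20 just inside the upper edge had a median P of 0.871% and the 20 just outside 1.08%. Counting error alone blurs these edges: the 95% binomial interval of P lay wholly within the range for 416 intermediate barcodes (42.0%), reached below the lower edge for 538 (54.3%) and above the upper edge for 37 (3.73%). Conversely, the interval of 2466 other testis barcodes (32.4%) overlapped the range.

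**Figure D1:**
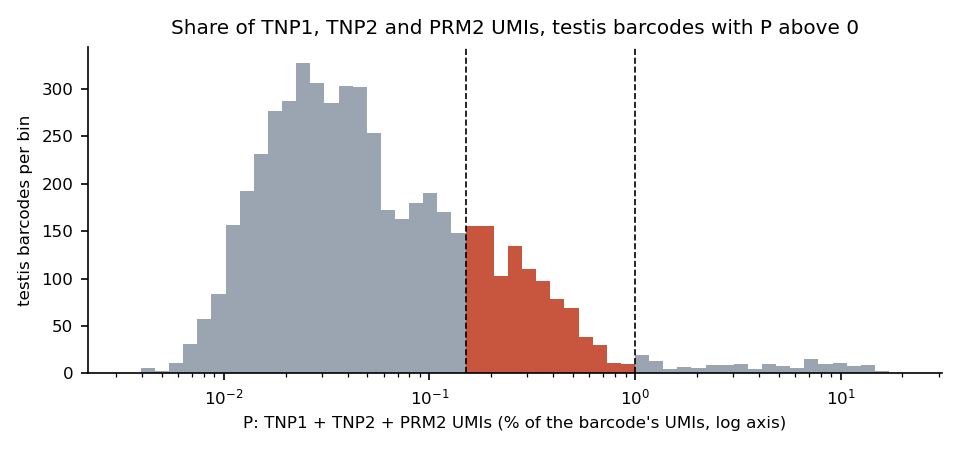
Number of testis barcodes per bin (vertical axis) against P, the share of UMIs from TNP1, TNP2 and PRM2 in percent on a log axis; barcodes with P of 0 are not drawn. Red bins hold the 991 intermediate barcodes between the dashed edges at 0.15 and 1.0, and the 163 high barcodes form a thin tail to their right.

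The mix of the 3 rule genes differed between ranges; as the rule used them, this is a description. TNP1 gave 64.4%, PRM2 34.6% and TNP2 1.01% of their summed UMIs in the intermediate barcodes. In the high barcodes TNP1 gave 59.9%, PRM2 30.04% and TNP2 10.05%. TNP2 was thus a minor part of the mix at intermediate P. Thinned to 1800 UMIs, TNP2 had a UMI in 4.94% of intermediate barcodes (11.1% unthinned) and in 79.1% of high barcodes (87.1% unthinned, median 3592 UMIs). The interval of the intermediate share was 3.68 to 6.48%. In the 62 barcodes rich in stromal and leukocyte genes the thinned share was 8.06% (2.67 to 17.8%, and 11.3% unthinned). It was 3.25% in the low barcodes (2.34 to 4.38%) and 3.37% in the rest of the testis (2.98 to 3.80%). The 62 barcodes are few and had a TNP1 UMI in 35.5% when thinned, so they are no clean background for TNP2. As TNP2 is a rule gene, no conclusion is drawn from these shares. The upper edge of the rule itself keeps TNP2-rich barcodes out. The thinned share was 3.42% for P of 0.15 to 0.3% and 5.398% for P of 0.3 to 0.6%. In the 54 barcodes with P of 0.6 to 1.0% it was 18.5% (9.25 to 31.4%). The median P of those 62 barcodes was 0.0350%, against 0.0186% in the other testis barcodes, and 5 of them are among the 991.

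The testis library held 47686179 UMIs, of which 5320368 were in the intermediate barcodes, with a median of 4460 per barcode (1817 to 30796). Medians were 3592 UMIs in the high barcodes and 4285.5 in the low barcodes. The intermediate barcodes had a median of 2453 genes, against 1777 in the high barcodes and 2362 in the low barcodes. Barcodes merged from more than 1 bead made up 10.6% of the intermediate, 11.7% of the high and 14.1% of the low barcodes. Among the 10% of testis barcodes with the highest doublet scores were 83 of the intermediate (8.38%), 27 of the high (16.6%) and 133 of the low barcodes (10.5%). The stromal gene list summed to 0.0241% of UMIs in the intermediate, 0.0242% in the high and 0.0388% in the low barcodes. The leukocyte list summed to 0.00626% in the intermediate, 0.00922% in the high and 0.00716% in the low barcodes. Both lists were highest in a cluster of 46 of the 991 barcodes, described further on. Leaving out the barcodes with those highest doublet scores raised the number of genes higher than in the high barcodes. It also raised the number of genes lower than in the low barcodes, and both counts are given in the closing section. The part of doublets and free RNA in the differences themselves was not tested.

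For each comparison the 3 rule genes were left out, UMIs were summed over barcodes, and a gene was called when the whole 95% interval of the CPM ratio lay beyond 2-fold and the higher side held at least 50 UMIs. Against the high barcodes, 600 of 8291 genes were higher in the intermediate barcodes (7.24%) and 550 were lower (6.63%), 13.9% in all. The median log2 ratio of the genes tested was 0.57. Divided by that median, 146 were higher and 798 lower, so that the share of higher genes among those called was 15.5% in place of 52.2%. The high barcodes held 785270 UMIs, against 5320368 in the intermediate barcodes. The minimum of 50 UMIs therefore admitted weakly expressed genes more easily when they were higher in the intermediate barcodes. The median and both sets of counts carry this imbalance.

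The most abundant genes of chromatin condensation were above the rest of the testis and below the high barcodes. Of 10 list genes tested against the rest of the testis, 5 were higher and 0 lower, where 16.6% of all 15339 genes were higher and 8.29% lower, 24.9% in all. Of 9 tested against the high barcodes, 1 was higher and 3 lower, where 7.24% of all genes were higher and 6.63% lower. HMGB4, a high-mobility-group protein of spermatids, had 3053 CPM in the intermediate barcodes, 6808 CPM in the high barcodes, 1732 CPM in the low barcodes and 745 CPM in the rest. PRM3, a protamine-like gene, had 846 CPM in the intermediate barcodes, 2596 CPM in the high barcodes, 441 CPM in the low barcodes and 190 CPM in the rest. The spermatid linker histone gene H1-7 had 633 CPM in the intermediate barcodes, 1351 CPM in the high barcodes, 313 CPM in the low barcodes and 121 CPM in the rest. All 3 thus stood in the same order across the groups. CHD5, a remodeller that in the mouse takes part in histone removal, had 56.2 CPM in the intermediate barcodes and 148 CPM in the high barcodes, 2.64-fold higher in the high barcodes (2.104 to 3.29).

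BRDT and CDYL, listed with histone acetylation and removal, differed from that order and from each other. BRDT, a bromodomain protein that binds acetylated histones, had 971 CPM in the intermediate barcodes, 460 CPM in the high barcodes, 964 CPM in the low barcodes and 898 CPM in the rest. It was 1.01-fold the low level (0.971 to 1.05) and 2.11-fold the high level (1.89 to 2.36), which misses the call. CDYL, a chromodomain protein of spermatid chromatin, was called in every testis comparison. It had 126 CPM in the intermediate barcodes, 368 CPM in the high barcodes, 29.9 CPM in the low barcodes and 21.7 CPM in the rest. Within the range CDYL climbed with P, at 51.4 CPM for P of 0.15 to 0.2%, 76.3 CPM to 0.3%, 171 CPM to 0.6% and 550 CPM to 1.0%.

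The testis-specific serine kinase list had genes near their high level and genes far below it. Of 7 list genes tested, 6 were higher than in the rest of the testis, TSACC being the exception, where 16.6% of all genes were higher. Against the high barcodes 0 were higher and 2, TSSK3 and TSSK6, lower, where 7.24% of all genes were higher and 6.63% lower. TSSK1B had 343 CPM in the intermediate barcodes, 374 CPM in the high barcodes and 261 CPM in the low barcodes. TSSK6, which in the mouse is needed for the histone-to-protamine exchange, had 42.2 CPM in the intermediate barcodes, 412 CPM in the high barcodes and 8.19 CPM in the low barcodes. TSSK6 was 9.75-fold higher in the high barcodes (8.18 to 11.6) and 5.15-fold higher in the intermediate than in the low barcodes (3.81 to 7.07).

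Acrosome genes had their highest summed share at intermediate P. It was 1.25% of UMIs in the intermediate barcodes, 0.888% in the high barcodes, 1.18% in the low barcodes and 1.03% in the rest. Of 27 genes tested, 6 were higher than in the high barcodes (SPACA1, SPACA3, SPACA4, LYZL4, LYZL6 and GOPC) and 1, CYLC1, was lower. After division by the median ratio 4 of 25 were higher and 3 lower. Against the low barcodes 0 of the 27 were called, while 4.47% of all 11022 genes were higher and 0.372% lower, 4.84% in all; without the 2 small clusters described below 2 of the 27 were higher. Against the rest of the testis 16 were higher and 1, SPATA16, lower, where 16.6% of all genes were higher and 8.29% lower. Against the high barcodes the shares of all genes were 7.24% and 6.63%.

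LYZL6, a lysozyme-like sperm protein, had 496 CPM in the intermediate barcodes and 84.2 CPM in the high barcodes, 5.89-fold higher (4.59 to 7.69). SPACA4, a membrane protein of the acrosome, had 350 CPM in the intermediate barcodes and 60.2 CPM in the high barcodes, 5.81-fold higher (4.33 to 7.999). SPACA1, needed in the mouse for acrosome shape, had 1369 CPM in the intermediate barcodes and 572 CPM in the high barcodes, 2.39-fold higher (2.17 to 2.64). In the low barcodes LYZL6 was at 377 CPM, SPACA4 at 279 CPM and SPACA1 at 1040 CPM, which left the intermediate level 1.32-fold, 1.25-fold and 1.32-fold higher. CYLC1, a cylicin of the perinuclear theca, had 247 CPM in the intermediate barcodes and 560 CPM in the high barcodes.

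Among 9760 genes with at least 50 UMIs in the intermediate barcodes, 2825 (28.9%) had their highest CPM there when the testis was cut into P below 0.05%, the low, the intermediate and the high ranges. Of the acrosome list 14 of 27 genes did so, and of the round spermatid list 9 of 15, the 2 lists sharing some genes. Of the dense fibre and fibrous sheath list 1 of 19 did so, and of the meiosis list 2 of 29. Genes entered this count only through their UMIs in the intermediate barcodes, so genes abundant only in other ranges were left out. The highest range was taken without an interval, and these counts are a description only.

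The genes that stood most clearly above the high barcodes are known from varied roles. OLFML2B, an olfactomedin-like gene, had 124 CPM in the intermediate barcodes and 8.02 CPM in the high barcodes, 15.5-fold higher (7.07 to 42.3), on 6 UMIs in the high barcodes. FBP2, a fructose-bisphosphatase, had 222 CPM in the intermediate barcodes and 25.4 CPM in the high barcodes, 8.72-fold higher (5.56 to 14.5). NDC80, known as a kinetochore protein of dividing cells, had 847 CPM in the intermediate barcodes and 124 CPM in the high barcodes, 6.81-fold higher (5.55 to 8.45). NDC80 stood at 105 CPM where P was 0. TMEM81, a sperm protein of gamete fusion, had 83.7 CPM in the intermediate barcodes and 8.02 CPM in the high barcodes, 10.4-fold higher (4.76 to 28.6). FAM24B, GRAMD1C, CCZ1, S1PR4, STK17B and SYNE3 complete the 12 genes with the largest lower bounds, together with LYZL6 and SPACA4.

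The genes that stood most clearly below the high barcodes had few UMIs at intermediate P. PRSS37, a protease-like protein needed in the mouse for sperm migration, had 16.6 CPM in the intermediate barcodes and 484 CPM in the high barcodes, 29.2-fold higher in the high barcodes (23.0 to 37.3). TEX37, a testis-expressed gene, had 5.84 CPM in the intermediate barcodes and 303 CPM in the high barcodes, 51.9-fold higher in the high barcodes (35.6 to 78.2). FAM71B had 6.79 CPM in the intermediate barcodes and 360 CPM in the high barcodes, 53.0-fold higher in the high barcodes (37.3 to 77.3). It was the only round spermatid list gene lower than in the high barcodes, against 3 higher of 16 tested. Of all genes, 7.24% were higher and 6.63% lower. GPI, a glycolytic isomerase, had 7.16 CPM in the intermediate barcodes and 227 CPM in the high barcodes, 31.7-fold higher in the high barcodes (22.2 to 46.4). The remaining 8 of this set were SCART1, P3R3URF, CSTL1, PAQR5, TMEM269, FSCN3, C2H10orf120 and FAM214B.

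**Figure D2:**
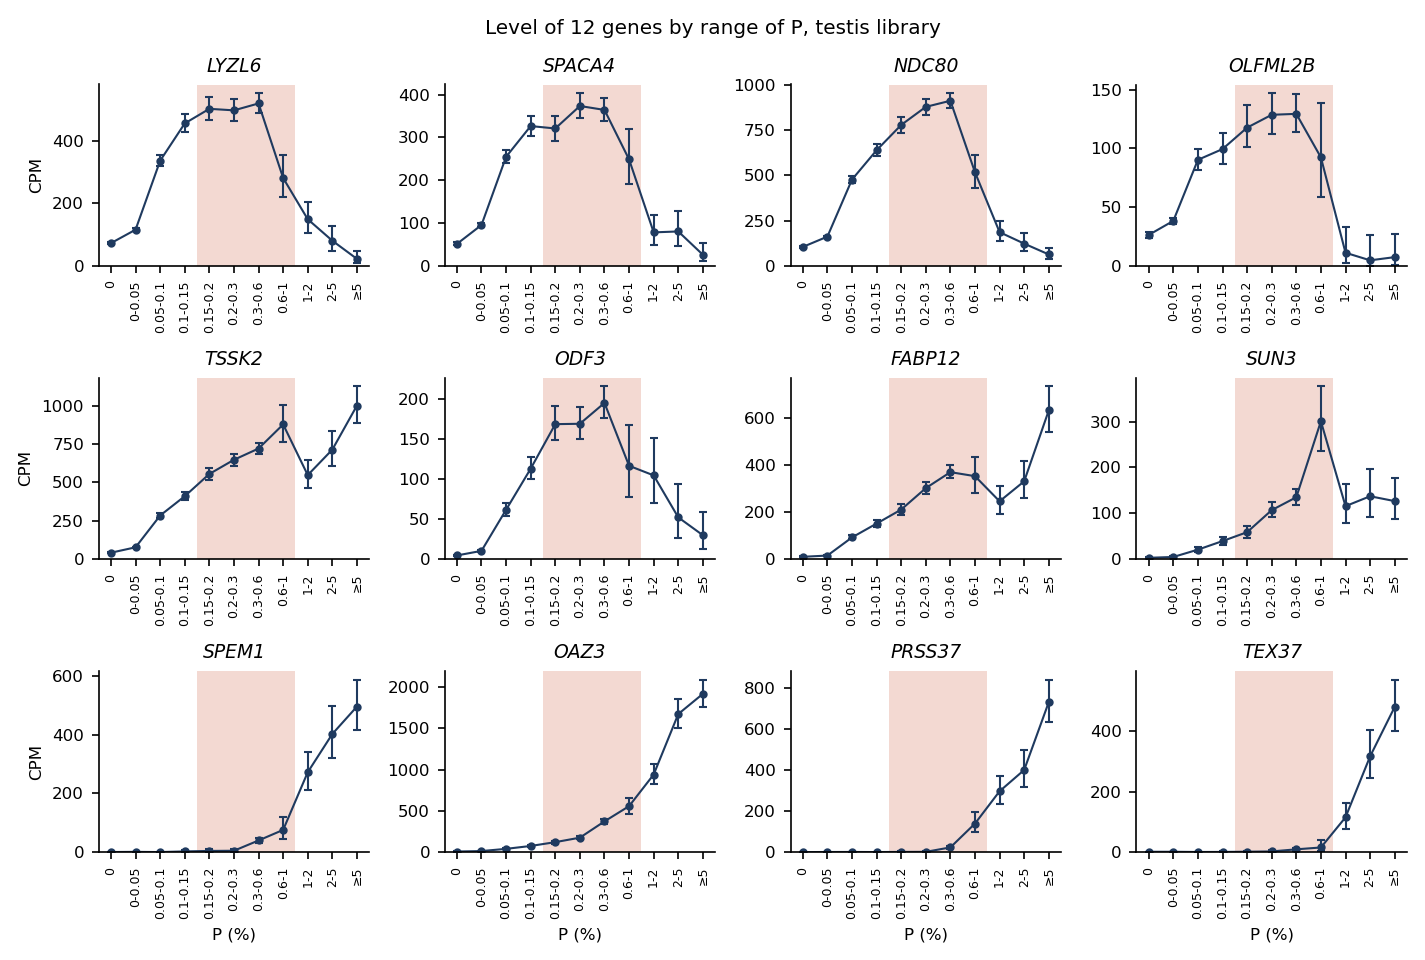
CPM (vertical axes, from 0) of 12 genes in 11 ranges of P in percent (horizontal axes, low to high) in the testis library, with exact 95% Poisson intervals as bars; the red band covers the 4 ranges of the intermediate barcodes. LYZL6, SPACA4, NDC80 and OLFML2B are high through most of the band and low from P of 1% on, while SPEM1, OAZ3, PRSS37 and TEX37 are near 0 on its left side and highest at the right end.

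Main structural genes of the tail were below their high level, and ODF3 above it. Of 19 dense fibre and fibrous sheath genes tested against the high barcodes, 2 were higher (CCDC42 and ODF3) and 5 lower (ODF1, ODF2, AKAP4, TCP11 and CAPZB). ODF1, the main dense fibre protein, had 906 CPM in the intermediate barcodes, 2793 CPM in the high barcodes and 516 CPM in the low barcodes. AKAP4, the main fibrous sheath protein, had 544 CPM in the intermediate barcodes, 1716 CPM in the high barcodes and 323 CPM in the low barcodes. Both were about 3-fold higher in the high barcodes, and neither was called against the low barcodes. ODF3 instead peaked at intermediate P, with 62.8 CPM in the high barcodes and 78.9 CPM in the low barcodes. Of 44 axoneme genes 3 were higher and 3 lower than in the high barcodes, near the shares of all genes (7.24% and 6.63%). Among the lower ones, TUBA8, an alpha tubulin, had 9.99 CPM in the intermediate barcodes and 225 CPM in the high barcodes.

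Some manchette and head-shaping genes separated the intermediate from the low barcodes, while most did not. Of 28 tested, 5 were higher than in the low barcodes and 0 lower, where 4.47% of all 11022 genes were higher and 0.372% lower. The list's median log2 ratio was -0.04, against -0.10 for all genes tested. SUN3, a nuclear envelope protein that links the nucleus to the manchette, had 113 CPM in the intermediate barcodes, 126 CPM in the high barcodes, 27.0 CPM in the low barcodes and 9.62 CPM in the rest. It was 4.17-fold higher than in the low barcodes (3.53 to 4.96) and 0.897-fold the high level (0.721 to 1.13). HOOK1, a manchette linker protein, had 122 CPM in the intermediate barcodes, 624 CPM in the high barcodes and 46.9 CPM in the low barcodes. SPEM2 had 27.9 CPM in the intermediate barcodes, 158 CPM in the high barcodes and 1.82 CPM in the low barcodes. SPEM1 was 12.7-fold higher than in the low barcodes (6.81 to 26.1), on 112 UMIs, of which 70 lay in a cluster of 83 barcodes with many high doublet scores. Without that cluster and a further one described below, SPEM1 had 9.02 CPM in the intermediate barcodes, 2.32% of the high level, against 1.67 CPM in the low barcodes. SPATA3 was also among the 5. With clusters 1 to 3 alone 4 of 27 were higher.

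SPATA and TEX genes, testis genes of varied function, were of both kinds. Of 41 tested against the rest of the testis, 28 were higher and 2 lower. Against the high barcodes 1 of 36 was higher and 11 were lower, and against the low barcodes 9 of 40 were higher and 0 lower. Of all genes, 16.6% were higher and 8.29% lower than in the rest of the testis. The shares of all genes were 7.24% and 6.63% against the high barcodes, and 4.47% and 0.372% against the low barcodes. SPATA18, linked to the quality control of mitochondria, had 70.9 CPM in the intermediate barcodes, 786 CPM in the high barcodes and 7.89 CPM in the low barcodes. TEX36 was nearer its high level, with 210 CPM in the intermediate barcodes, 275 CPM in the high barcodes and 54.0 CPM in the low barcodes.

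Most genes of the ubiquitin and cytoplasm removal lists were not called on either side. Lower genes were still more frequent in both lists than among all genes in the contrast with the high barcodes. Of all genes, 7.24% were higher and 6.63% lower than in the high barcodes, and 4.47% higher and 0.372% lower than in the low barcodes. Of 33 ubiquitin and proteasome genes, 1 was higher, 9 were lower and 23 were not called against the high barcodes. Against the low barcodes 5 of 33 were higher and 28 were not called (median log2 ratio 0.04). Of the autophagy and cytoplasm removal list, 0 of 12 were higher and 4 lower than in the high barcodes, and 1 of 13 was higher than in the low barcodes. UBE2J1, a ubiquitin-conjugating enzyme of the endoplasmic reticulum, had 84.5 CPM in the intermediate barcodes, 1421 CPM in the high barcodes and 19.4 CPM in the low barcodes. OAZ3, the testis antizyme that limits polyamines, had 251 CPM in the intermediate barcodes, 1496 CPM in the high barcodes and 53.9 CPM in the low barcodes. CABS1, a calcium-binding sperm protein, had 107 CPM in the intermediate barcodes, 1174 CPM in the high barcodes and 13.4 CPM in the low barcodes. These 3 genes held between 5.94% and 16.8% of their high level. FHL5, a partner of the spermatid transcription factor CREM, had 56.4 CPM in the intermediate barcodes, 340 CPM in the high barcodes and 11.2 CPM in the low barcodes. GAPDHS, the sperm form of a glycolytic dehydrogenase, had 442 CPM in the intermediate barcodes, 1540 CPM in the high barcodes and 210 CPM in the low barcodes.

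Against the low barcodes, 493 of 11022 genes were higher and 41 lower, with a median log2 ratio of -0.10. The clearest was SCP2D1, a sterol carrier domain gene, with 51.3 CPM in the intermediate barcodes and 3.03 CPM in the low barcodes, 16.9-fold higher (10.7 to 28.1). DNAJB7, a co-chaperone gene, had 66.4 CPM in the intermediate barcodes and 4.25 CPM in the low barcodes, 15.6-fold higher (10.6 to 23.9). Both were higher again in the high barcodes, SCP2D1 at 619 CPM and DNAJB7 at 370 CPM. FAM71A, FNDC8, MORN3, C20H11orf42, BPIFA3, CUNH22orf46, CORO2A, ANKEF1, SPEM1 and SPEM2 were the other 10 of the 12.

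Among the 41 lower genes the clearest was SLX4, a scaffold of DNA repair nucleases, with 55.2 CPM in the intermediate barcodes and 166 CPM in the low barcodes, 3.00-fold higher in the low barcodes (2.63 to 3.42). ESPL1, the separase that parts chromosomes, had 1.89 CPM in the intermediate barcodes and 9.56 CPM in the low barcodes, on 10 and 63 UMIs. The number of lower genes depended on which intermediate barcodes were counted. Without the 2 small clusters described below (83 and 46 barcodes) it was 200 of 10811, and the number of higher genes was 491. Those clusters were left out of the intermediate side alone, and the low barcodes were kept whole. VIM, a filament protein of stromal cells, was among the 12 clearest lower genes, with 14.1 CPM in the intermediate barcodes and 41.3 CPM in the low barcodes. In barcodes with at least 3000 UMIs its ratio was 1.0002. The others were LYAR, THUMPD3, LIN7C, KYAT1, TMED10, CWC22, ARV1, PFN2 and EIF4A3.

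Against all other testis barcodes, 2547 of 15339 genes were higher and 1272 lower, with a median log2 ratio of -0.29. Divided by that median, 3100 were higher and 729 lower, 81.0% higher in place of 66.7%. The rest of the testis held 42365811 UMIs, against 5320368 in the intermediate barcodes. The required minimum of UMIs on the higher side therefore admitted weakly expressed genes more easily when they were higher in the rest. This median and the counts before and after division carry that imbalance. Of the round spermatid list 14 of 17 genes were higher and 0 lower. The largest lower bound belonged to ANXA9, an annexin, with 9.80 CPM in the intermediate barcodes and 0.307 CPM in the rest, on 52 and 13 UMIs. SPATA25 had 39.8 CPM in the intermediate barcodes and 2.24 CPM in the rest, 17.7-fold higher (13.8 to 22.8). PLBD1, a phospholipase-like gene, had 128 CPM in the intermediate barcodes and 10.1 CPM in the rest, 12.7-fold higher (11.2 to 14.4). SUN3 was also among these 12, with TSPOAP1, SLFNL1, ULK3, EVA1A, FBLIM1, PROX1, PJA1 and DSE.

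Meiotic genes were more often lower than higher. Of 43 tested against the rest of the testis, 2 were higher (REC8 and NLRP14) and 11 lower, where 16.6% of all genes were higher and 8.29% lower. CKS2, a cyclin-dependent kinase subunit, had 36.8 CPM in the intermediate barcodes and 303 CPM in the rest, 8.24-fold higher in the rest (7.15 to 9.54). CDK1, the mitotic and meiotic kinase, had 3.21 CPM in the intermediate barcodes and 36.2 CPM in the rest, 11.3-fold higher in the rest (7.03 to 19.4). PTTG1, the securin, had 17.3 CPM in the intermediate barcodes and 142 CPM in the rest, 8.21-fold higher in the rest (6.69 to 10.2). REC8, a meiotic cohesin subunit, went the other way, with 133 CPM in the intermediate barcodes and 24.6 CPM in the rest, 5.39-fold higher (4.89 to 5.94). The clearest lower genes besides CKS2, CDK1 and PTTG1 were ESPL1, THUMPD3, HENMT1, CCDC115, PEBP1, ASF1B, CIAPIN1, UBE2T and KYAT1. Of 77 cytosolic ribosomal protein genes 0 were called in this comparison in either direction.

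**Figure D3:**
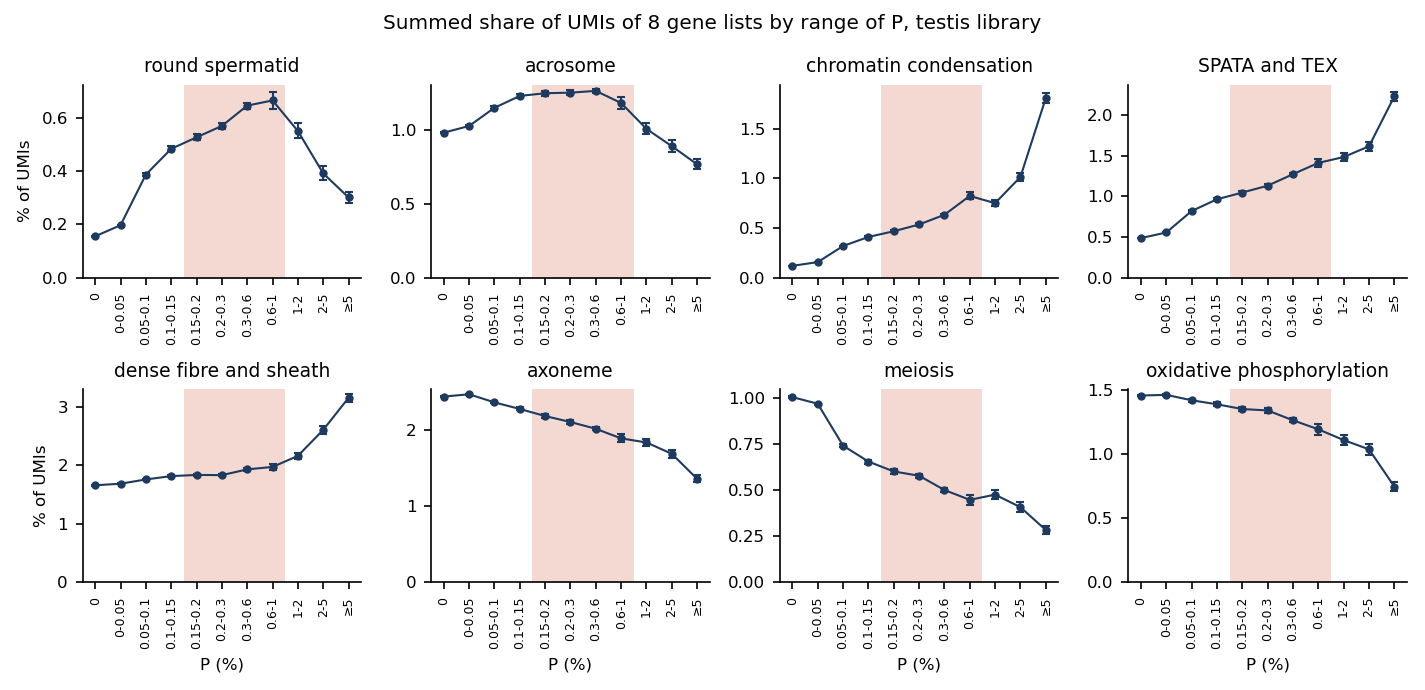
Share of UMIs in percent (vertical axes, from 0) summed over each of 8 gene lists in 11 ranges of P (horizontal axes, low to high), with exact 95% intervals as bars; the red band covers the intermediate barcodes. The round spermatid list is highest in the band, at 0.668% for P of 0.6 to 1.0%, the meiosis list is at 1.01% where P is 0 and at 0.284% at the right end, and the chromatin condensation list, without the rule genes, is highest at the right end.

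Within the range, levels moved with P. The 280 barcodes with P of 0.15 to 0.2% had OAZ3 at 123 CPM, the 305 up to 0.3% at 177 CPM, the 352 up to 0.6% at 374 CPM and the 54 up to 1.0% at 558 CPM. SUN3 went through 58.8, 107, 135 and 301 CPM in the same 4 steps. LYZL6 held at 502, 497 and 519 CPM through the lower 3 steps and was at 281 CPM in the last. GOPC, a Golgi protein needed in the mouse for acrosome formation, went down through 387, 361.5, 316 and 120 CPM. OAZ3 and SUN3 were thus highest, and LYZL6 and GOPC lowest, in the uppermost 54 barcodes.

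Clustering of the 991 barcodes without the rule genes gave 5 clusters, and their defining genes are described without a test. Clusters 1, 2 and 3 held 388, 310 and 164 barcodes, 862 in all, with a median P of 0.196%, 0.299% and 0.453%. Cluster 1 was led by RNF13, a ubiquitin ligase, and MICU2, a regulator of mitochondrial calcium uptake. MICU2 had 219 CPM in cluster 1, 108 CPM in cluster 2, 44.7 CPM in cluster 3 and 249 CPM in the low barcodes. Cluster 2 was led by MICAL2, an actin-oxidizing enzyme, with 69.1 CPM there, 21.5 CPM in cluster 1, 36.9 CPM in cluster 3 and 4.01 CPM in the high barcodes. Cluster 3 was led by CUNH22orf46, SCP2D1, PRSS37 and C2H10orf120. It held 208 of the 272 SCP2D1 UMIs and 70 of the 88 PRSS37 UMIs of all intermediate barcodes. The round spermatid list share was 0.536% in cluster 1, 0.644% in cluster 2 and 0.724% in cluster 3, and the meiosis list share 0.606%, 0.532% and 0.435% in the same order.

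Clusters 4 and 5 stood apart. Cluster 4 (83 barcodes, median P 0.273%) was led by C2H10orf62, SH3RF2, SPEM1, CORO2A and AKAP1, all at higher CPM in the high barcodes than in cluster 4. C2H10orf62 had 262 CPM in cluster 4, 642 CPM in the high barcodes and 4.40 CPM in the low barcodes. Cluster 4 also carried genes of the other end: CKS2 had 130 CPM in cluster 4, 48.1 CPM in the high barcodes and 77.1 CPM in the low barcodes, and SLC2A3, a glucose transporter, 256, 56.1 and 121 CPM. Its round spermatid list share was 0.350%, and 45 of its 83 barcodes were among the highest doublet scores. Cluster 5 (46 barcodes) was led by APOD, B2M, APOE, TIMP3, DCN, FOS, TMSB4X and CD74, genes of stromal, antigen-presenting and stressed cells. DCN, a stromal proteoglycan, had 442 CPM in cluster 5 and 6.44 CPM in clusters 1 to 3. INSL3, a Leydig cell hormone, had 181 CPM in cluster 5 and 3.43 CPM in clusters 1 to 3. In cluster 5 the stromal list made up 0.369% and the leukocyte list 0.0980% of UMIs, and 15 of 46 barcodes were among the highest doublet scores. The part of mixed barcodes in these 2 clusters was not tested.

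**Figure D4:**
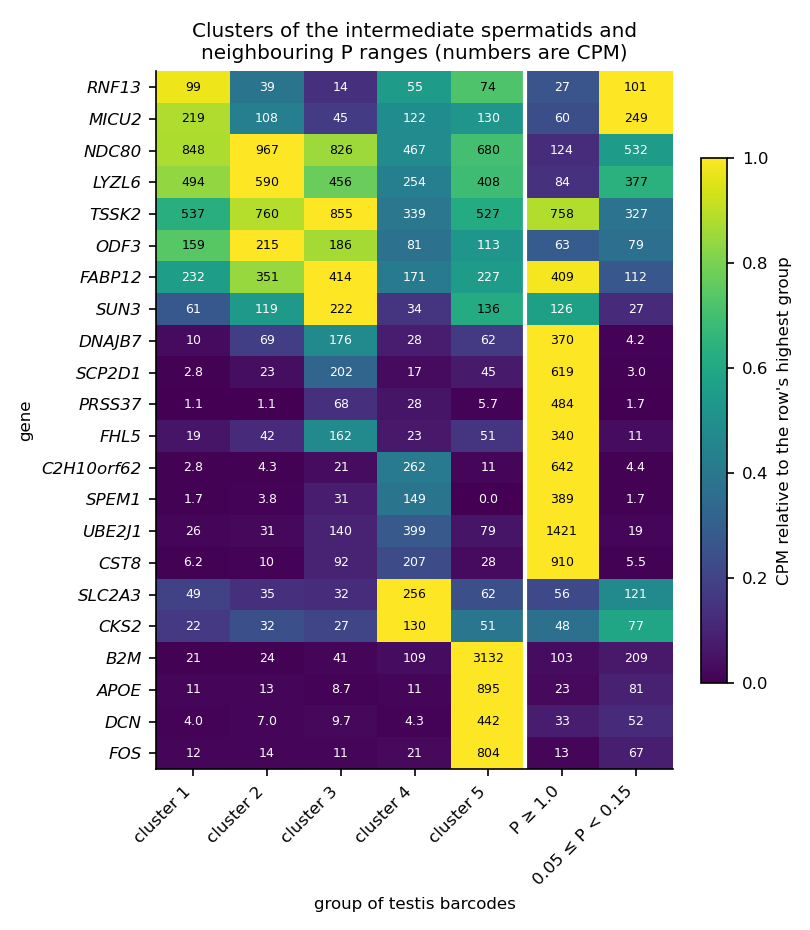
CPM of 22 genes (rows) in the 5 clusters of the intermediate barcodes and in the high and low barcodes (columns); numbers are CPM and colour is CPM relative to the row's highest group. Among the clusters SUN3 is highest in cluster 3 (222 CPM), SPEM1 and C2H10orf62 in cluster 4 (149 and 262 CPM) and DCN in cluster 5 (442 CPM).

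Leaving out clusters 4 and 5 changed the contrast with the low barcodes most. There the lower genes numbered 200 in place of 41, and 2 of 27 acrosome genes were higher in place of 0. Only the intermediate side was reduced in this way, as the compared barcodes were not clustered, so the 2 sides were treated unlike. Against the high barcodes 659 genes were higher and 543 lower, and 6 of 27 acrosome genes were higher and 0 lower. Against the rest of the testis 14 of 17 round spermatid genes and 16 of 27 acrosome genes were higher. With clusters 4 and 5 kept, 7.24% of all genes were higher and 6.63% lower than in the high barcodes. In that setting 4.47% were higher and 0.372% lower than in the low barcodes, and 16.6% and 8.29% than in the rest. TEX37 had 2.58 CPM and GPI 3.22 CPM in clusters 1 to 3, 0.849% and 1.42% of their high level. UBE2J1 had 53.0 CPM in clusters 1 to 3, against 19.4 CPM in the low barcodes.

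The same range of P held 64 of 9478 barcodes in the epididymis caput library, the head of the duct that sperm enter from the testis, and 7 of 9611 in the corpus library. The caput barcodes were shallow, with a median of 1089.5 UMIs and 3 rule gene UMIs, and the corpus barcodes had 1 to 3 rule gene UMIs each. Between testis and caput, tissue, library and depth cannot be told apart. Of 6110 genes 417 (6.82%) were higher in the testis barcodes and 93 (1.52%) lower, 8.35% in all, with a median log2 ratio of 0.999. The 64 caput barcodes held 100781 UMIs, against 5320368 in the intermediate testis barcodes. The required minimum of UMIs on the higher side therefore admitted weakly expressed genes far more easily when they were higher in testis. Both counts and the median carry this imbalance, so their balance is not read as a result. The lower genes were led by genes known from the epididymal epithelium, RNASE10, DEFB113, LCN6, EDDM13, MUC15 and WFDC11 among them. DEFB119, a beta-defensin, had 4.34 CPM in the intermediate testis barcodes, 2958 CPM in the 64 caput barcodes and 5770 CPM in the other caput barcodes. Of 59 ribosomal protein genes 39 were lower in the testis barcodes.

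Spermatid transcripts in the caput range had another balance. OAZ3 had 251 CPM in the intermediate testis barcodes and 627 CPM in the caput barcodes, on 63 UMIs. SPEM1 had 21.1 CPM in the intermediate testis barcodes and 149 CPM in the caput barcodes, on 15 UMIs. LYZL6 had 496 CPM in the intermediate testis barcodes and 39.8 CPM in the caput barcodes, on 4 UMIs, 12.5-fold higher in testis (4.86 to 45.8). NDC80 had 847 CPM in the intermediate testis barcodes and 89.6 CPM in the caput barcodes, 9.44-fold higher in testis (4.97 to 20.7). In the 8 caput barcodes as deep as those of the testis library, OAZ3 had 134 CPM on 5 UMIs, SPEM1 26.7 CPM on 1 UMI, NDC80 214 CPM on 8 UMIs (92.3 to 421) and LYZL6 107 CPM on 4 UMIs (29.1 to 274). In those deep barcodes NDC80 and LYZL6 were again below the testis level. OAZ3 was not above the testis level there, and the SPEM1 value rests on 1 UMI, so the higher OAZ3 and SPEM1 levels of the 64 came from the shallow barcodes.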

How the data were processed

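Droplet single-cell RNA libraries from testis, epididymis caput and epididymis corpus, 1 each, were used. The deposited matrices hold raw UMI counts per feature and barcode, written by PISA 0.12 per the file headers; Cell Ranger 2.1.1 is named in the submitters' processing notes without its role. Aligner, genome build and strand setting: not given in the sources used here. Reads of overlapping genes therefore cannot be told apart. Features with a locus identifier took a symbol from RefSeq by gene identifier (706 of 16366 in testis), PRM2 among them; no mitochondrially encoded feature was present (0). All deposited barcodes were used. The barcode names are serial numbers, so barcodes shared between libraries could not be counted.

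P was computed per barcode, UMIs were summed per group without the 3 rule genes and divided by the group total to give CPM. Levels carry exact Poisson, shares exact binomial (Clopper-Pearson) and ratios exact conditional binomial 95% intervals, which cover counting error alone; calls needed the whole interval beyond 2-fold and 50 UMIs. The steps were tested on simulated data. Named genes were, per comparison and direction, the 12 genes carrying a symbol whose interval bound nearest 1 was most extreme, up to 4 genes per list with the most UMIs and the 5 given markers; list genes called in a comparison, and genes leading a cluster, were named besides, after their values were seen. Members and lists were chosen with earlier results of these data known. Leiden clustering (resolution 0.6) joined 15 neighbours in 20 principal components of 1000 variable genes; doublets were scored against simulated pairs (2 per barcode) and left in. The alternatives were a 4-fold bound, a minimum of 10 UMIs, division by the median ratio, thinning, deeper barcodes, single-bead barcodes, doublet scores, a narrower P range, TNP1 alone and, added after seeing the data, clusters 1 to 3. Software was scipy 1.17.1, numpy 2.4.6, leidenalg 0.10.2, igraph 0.11.9, scikit-learn 1.9.0, pandas 2.3.3 and matplotlib 3.10.9 under Python 3.11.15.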

Additional observations from a re-analysis of the deposited data

How the results depend on the processing

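With 1 library per tissue no replicate could be left out. No paired analysis was possible because each tissue has 1 library and no result comes from a test. Against the high barcodes, 35 genes were higher and 298 lower beyond 4-fold, 1073 were lower with a minimum of 10 UMIs, 146 were higher after division by the median ratio, 352 were higher and 304 lower in barcodes thinned to 1800 UMIs, and 984 were higher without the 10% highest doublet scores. Against the low barcodes, 102 genes were higher and 0 lower beyond 4-fold, 216 were higher after thinning, and the 41 lower genes became 62 with a minimum of 10 UMIs, 17 after division by the median, 20 with at least 3000 UMIs, 21 without barcodes of more than 1 bead, 85 without high doublet scores, 75 for P of 0.20 to 0.80% and 200 with clusters 1 to 3. Against the rest of the testis, 844 genes were higher and 148 lower beyond 4-fold, 729 were lower after division by the median, and 1418 were higher and 682 lower after thinning. The intermediate barcodes were 8.10% of the testis for P of 0.20 to 0.80% and 8.20% with P from TNP1 alone (706 barcodes, 652 of them among the 991). VIM against the low barcodes changed direction with at least 3000 UMIs, at a ratio of 1.0002. Thinning and the 4-fold bound leave fewer UMIs or a stricter rule by construction; for the others the cause was not tested. Over the named genes, 607 of their values under the alternatives kept direction and call and 39 lost the call; SYNE3 without barcodes of more than 1 bead had no UMI in the high barcodes and gave no ratio. In the uppermost 54 barcodes 1 UMI stands for 3.98 CPM, and 3 UMIs for 11.9 CPM, which limits statements on genes below that level there.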

Other observations

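Most genes listed as markers of other cell types were not called against the rest of the testis. There 3 of 9 spermatogonial, 2 of 18 stromal and 1 of 13 immediate-early genes were higher in the intermediate barcodes and 0 of each lower. Of all 15339 genes 16.6% were higher and 8.29% lower. Median log2 ratios of the 3 lists were 0.48, -0.24 and -0.13, against -0.29 for all genes tested. With so few genes, these counts are not read as a result about the lists. Some of the higher ones are given as values, chosen after their values were seen. LIN28A, an RNA-binding protein known from stem cells and spermatogonia, had 34.5 CPM in the intermediate barcodes, 5.35 CPM in the high barcodes, 19.0 CPM in the low barcodes and 1.77 CPM where P was 0, and 37.3 CPM in clusters 1 to 3. UCHL1, a ubiquitin hydrolase used as a spermatogonial marker, had 37.0 CPM in the intermediate barcodes, 112 CPM in the high barcodes, 14.9 CPM in the low barcodes and 1.20 CPM where P was 0. COL3A1, a fibrillar collagen gene, had 49.2 CPM in the intermediate barcodes and 16.7 CPM in the rest of the testis, and 48.7 CPM in clusters 1 to 3. EGR3, an immediate-early transcription factor gene, had 16.02 CPM in the intermediate barcodes and 1.68 CPM in the rest of the testis, and 17.8 CPM in clusters 1 to 3. HSPA6, a stress-induced chaperone gene, instead had 935 CPM in cluster 5 and 36.7 CPM in clusters 1 to 3. All barcodes shared the storage and digestion of their library, and the part of this handling in stress and immediate-early gene levels was not tested.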
